A study of Homo sapiens with 4 samples.

Results

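Unlisted gaps are stretches of at least 100 kb that lie between the end of 1 chromatin domain and the start of the next in the domain lists of VA-ES-BJ cells. They were found in 4 lists by sorting the domains of each chromosome and taking every interval of that length. The 4 lists held 3289 such gaps among 26048 intervals of any length between neighbouring domains, namely 839 for empty vector A and 858 for empty vector B, 804 for BAF47 A and 788 for BAF47 B. The gaps were chosen by their measured length, so lengths are given as a description and are not tested as a property of the gaps.

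VA-ES-BJ is a cell line from an epithelioid sarcoma, and its cells carried either an empty lentiviral vector or a constitutive vector for BAF47, with 2 samples of each lettered A and B. All cells went through blasticidin selection (10 µg/ml) and were fixed with 1% formaldehyde for Hi-C, which reads pairs of sequences ligated because they were close in the nucleus. The protocol text gives 48 h of virus and 5 days of drug, and the design text gives 48 h of drug and 5 days of growth. The promoter of the vector, the number of clones and whether the letters stand for separate infections are not given in the labels used here, so a p-value measures only the spread between these lists, which may be technical.

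BAF47, the product of SMARCB1, is part of the core of the BAF complex, also called SWI/SNF, which moves and evicts nucleosomes, and epithelioid sarcomas commonly lose it. Topologically associating domains are stretches of a chromosome whose sequences meet each other more often than they meet their neighbours, and they are held largely by cohesin and CTCF at their borders. In one widely used convention, an interval of up to 400 kb between domains is called a boundary region and a longer one unorganised chromatin, meaning chromatin in which no domain was called. The question addressed here is which parts of the genome had no listed domain, and whether they were the same parts with either vector.

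The lists had 6486 to 6589 domains each on the 22 autosomes, spanned about 2690 Mb and lay on a 50 kb grid, so that 1 bin is 50 kb. They hold positions only, the number of reads behind them is unknown, and they do not measure BAF47 itself. Listed positions act as a running count of bins that skips some of them, so they are not hg18 coordinates, and skipped bins inside an interval do not add to its length. No gene or sequence was therefore placed in a gap.

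The check for an offset in the numbering found a step of 1 bin on chromosomes 9 and 20. In BAF47 A, 160 of the 190 domain starts on chromosome 9 from 51.2 Mb onwards matched a start of empty vector A once 50 kb was taken off, and 12 matched as listed. In BAF47 B, the same held for 154 of 195 starts on chromosome 9 from 38.65 Mb onwards, against 14 as listed. On chromosome 20 from 16.65 Mb onwards, 114 of 135 starts of BAF47 B matched once 50 kb was added, against 6 as listed. The gaps moved with the domains. Of the 11 gaps of BAF47 A in its chromosome 9 block, 8 were identical to gaps of empty vector A and 7 to gaps of empty vector B after the shift, and 0 were identical to either as listed. Of the 12 gaps of BAF47 B in its chromosome 9 block, 7 and 9 were identical after the shift and 0 as listed. Of its 13 gaps in the chromosome 20 block, 8 matched empty vector A, 11 matched empty vector B and 8 matched BAF47 A after the shift, and 0 matched any of them as listed.

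On chromosomes 9 and 20 the ends of the lists carried the same step. The last domain of chromosome 9 ended at 122 Mb in both BAF47 lists and at 121.95 Mb in empty vector A, and that of chromosome 20 ended at 59.65 Mb in BAF47 B and at 59.7 Mb in empty vector A. The last end also differed on chromosome 2, at 238.25 Mb in BAF47 B and 238.35 Mb in the other lists, where no step was found. Of 66 combinations of another list and a chromosome set against empty vector A, 63 shared the most gaps at the listed positions, and the other 3 were these blocks. Gaps were counted and measured on the lists as deposited, and wherever positions are compared between lists the 3 blocks were shifted to match empty vector A.

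The gaps that border these steps show what the step does to a gap. Both empty vector lists had a 150 kb gap from 38.45 to 38.6 Mb on chromosome 9, between a 50 kb domain and a 12.5 Mb domain. BAF47 B listed it 1 bin higher, from 38.5 to 38.65 Mb, between a 100 kb domain and a 12.5 Mb domain. The 100 kb domain started at 38.4 Mb, as did the 50 kb domain of the empty vector lists, so the step also changed a flank. BAF47 A had no gap there, since its domains ran from 38.4 to 38.55 Mb and from 38.6 to 51.15 Mb, the latter 12.55 Mb long. On the far side of this domain, empty vector A had a 900 kb gap from 51.2 to 52.1 Mb, and both BAF47 lists had one of 900 kb from 51.25 to 52.15 Mb. Empty vector B had the same interval broken by a 50 kb domain into gaps of 450 and 400 kb. On chromosome 20, the first gaps beyond the step were 2 of 150 kb, at 17.3 to 17.45 Mb and 17.8 to 17.95 Mb in both empty vector lists and BAF47 A, and at 17.25 to 17.4 Mb and 17.75 to 17.9 Mb in BAF47 B.

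The gap lengths left 1 step of the grid empty. Just outside the threshold lay the intervals of 50 kb, which numbered 5669 and 5606 in the empty vector lists A and B and 5705 and 5779 in the BAF47 lists A and B, and which are the ordinary 1-bin spacing between neighbouring domains. No interval was exactly 100 kb long in any of the 4 lists. The shortest gaps were therefore 150 kb, and these numbered 460, 488, 440 and 451, or 54.8 to 57.2% of the gaps of a list. Domains of 100 kb were common at the same time, with 1126 to 1193 per list, so the missing length was missing from the intervals and not from the grid.

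**Figure D1:**
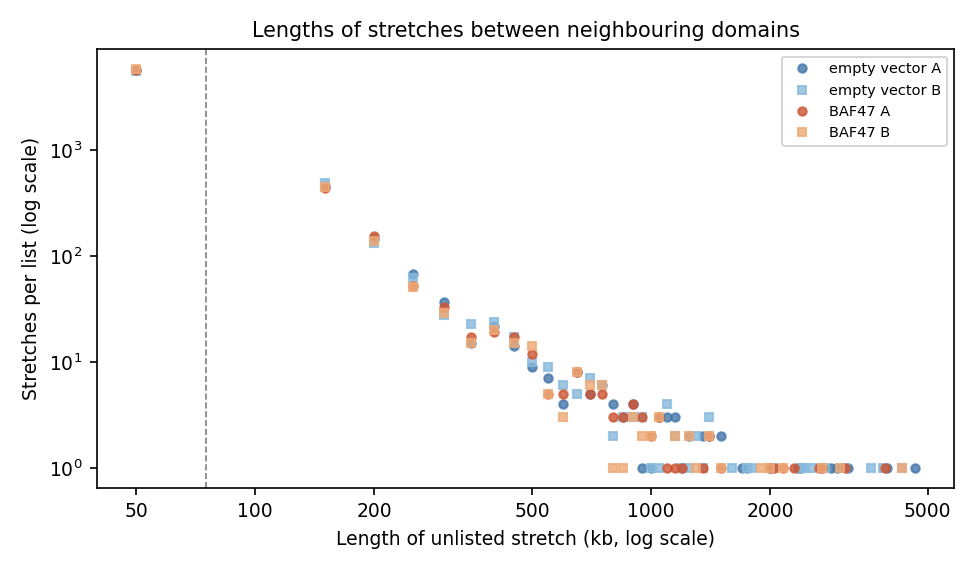
Number of intervals between neighbouring domains (log scale) against their length in kb (log scale), with 1 point per length and list and a dashed line between 50 kb intervals and gaps. Each list has 5606 to 5779 intervals of 50 kb, none of 100 kb and 440 to 488 of 150 kb, and the counts then fall off to single gaps of over 4 Mb.

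Beyond 150 kb the lengths fell off steeply, with a long tail. The median gap was 150 kb in every list, with quartiles of 150 and 250 kb. Gaps of 200 kb numbered 143, 133, 153 and 139 in the same order of lists. Those of 250 to 350 kb numbered 120, 113, 102 and 95, and those of 400 to 950 kb numbered 87, 95, 89 and 84. The longest gap of a list was 4.65 Mb in empty vector A (chromosome 8, 108.1 to 112.75 Mb), 4.3 Mb in empty vector B (chromosome 11, 92.6 to 96.9 Mb), 3.9 Mb in BAF47 A (chromosome 11, 22.4 to 26.3 Mb) and 4.3 Mb in BAF47 B (chromosome 8, 108.45 to 112.75 Mb).

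Both BAF47 lists had fewer gaps than both empty vector lists and left less of the genome in them. The mean number of gaps was 848.5 ± 13.4 for empty vector and 796 ± 11.3 for BAF47 (SD, n = 2). The difference of 52.5 exceeded the 19 between the empty vector lists and the 16 between the BAF47 lists, and the lists of the vectors did not overlap (exact two-sided permutation p = 0.33, the smallest that the 6 assignments of 4 lists allow). As a share of all intervals between domains, gaps made up 12.9 and 13.3% with empty vector and 12.4 and 12% with BAF47. The 50 kb intervals went the other way, from a mean of 5637.5 ± 44.5 (empty vector) to 5742 ± 52.3 (BAF47; SD, n = 2; exact permutation p = 0.33).

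The length in gaps differed more than their number. It was 231 and 238 Mb in the empty vector lists A and B and 211 and 200.2 Mb in the BAF47 lists A and B. The vectors did not overlap, at means of 234.8 ± 5.16 Mb (empty vector) and 205.8 ± 7.92 Mb (BAF47; SD, n = 2; exact permutation p = 0.33). The difference of 29 Mb, or 12.4% of the empty vector value, was larger than the 7.3 and 11.2 Mb between lists of 1 vector. Gaps thus took up 8.59 and 8.86% of the listed span with empty vector and 7.86 and 7.44% with BAF47.

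Long gaps carried most of the difference in length. Gaps of 1 Mb or more numbered 29 in each empty vector list, 20 in BAF47 A and 19 in BAF47 B. They held 50.85 and 53.55 Mb with empty vector against 35.1 and 31.6 Mb with BAF47, a difference of 18.85 Mb between means of 52.2 ± 1.91 and 33.35 ± 2.47 Mb (SD, n = 2; exact permutation p = 0.33). These gaps made up 22 and 22.5% of the gap length with empty vector and 16.6 and 15.8% with BAF47. All gaps of 400 kb or more, which include 19 to 24 per list of exactly 400 kb that the convention above calls boundary regions, numbered 116 and 124 with empty vector and 109 and 103 with BAF47, a difference of 14 beside 8 and 6 between lists of 1 vector (exact permutation p = 0.33). Gaps of 400 to 950 kb taken alone overlapped between the vectors (exact permutation p = 0.67), as did those of 200 kb (exact permutation p = 0.67).

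**Figure D2:**
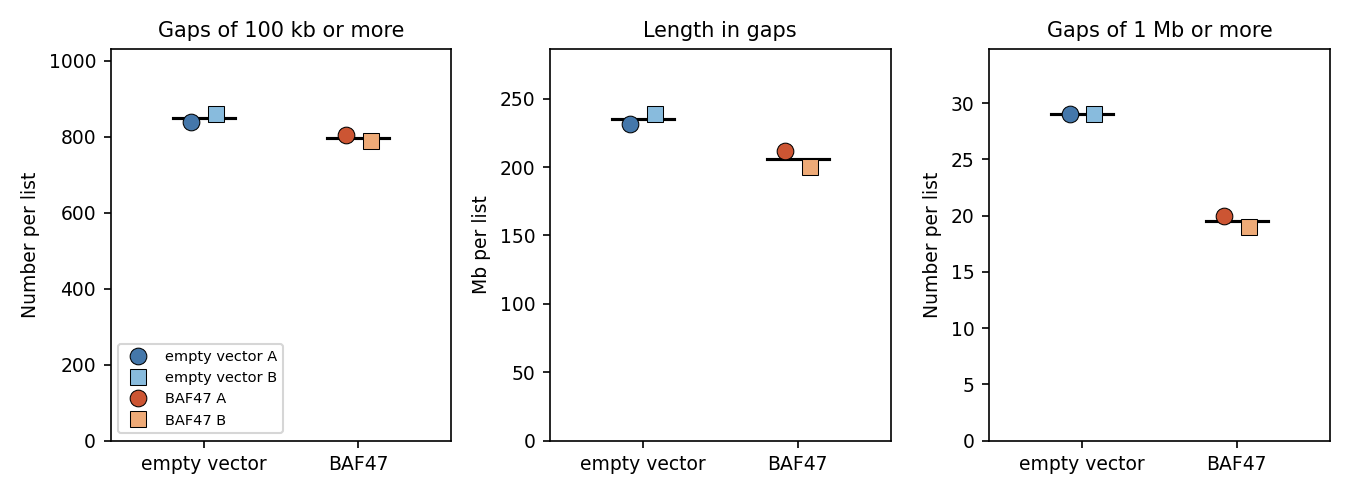
Number of gaps, summed gap length in Mb and number of gaps of 1 Mb or more, with 1 point per list and a bar at the mean of each vector. Both BAF47 lists lie below both empty vector lists in each panel, with 788 and 804 against 839 and 858 gaps, 200.2 and 211 against 231 and 238 Mb, and 19 and 20 against 29 and 29 gaps of 1 Mb or more.

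The domains that border gaps were drawn from both ends of the size range. From 1360 to 1476 domains per list touched at least 1 gap. Domains of 1 bin, the shortest the grid allows, made up 22.6 and 21.95% of the bordering domains in the empty vector lists A and B and 20.7 and 21.3% in the BAF47 lists A and B, against 16.9, 16.7, 16.6 and 17.2% of the other domains of the same list. Domains of 1 Mb or more made up 11.0, 10.8, 10.2 and 10.7% of the bordering domains against 4.82, 4.85, 5.10 and 5.09% of the others. Each of these shares was higher beside gaps in all 4 lists. Neighbouring gaps share the domain between them, so these domains are not independent observations.

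The typical flank was no longer than the typical domain, while its mean was longer. The median flank was 150 kb in empty vector A and 200 kb in the other lists, where the median of all domains was 200 kb in each. The vectors overlapped, at 175 ± 35.4 kb for the empty vector lists (SD, n = 2) and 200 kb in both BAF47 lists (exact permutation p = 1). The mean flank was 417, 404, 422 and 440 kb against 333, 335, 336 and 334 kb for all domains. The vector means were 411 ± 9.15 kb for empty vector and 431 ± 13.0 kb for BAF47 (SD, n = 2). They differed by 20.3 kb, beside 12.9 and 18.4 kb between lists of 1 vector (exact permutation p = 0.33).

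Flanks of 1 bin made up a larger share beside longer gaps. Of the domains on either side of 150 kb gaps, 20.2, 18.3, 16.4 and 17.6% were 1 bin long in the 4 lists in the same order. Beside gaps of 250 to 350 kb the share was 32.9, 31.0, 27.5 and 30.5%, and beside gaps of 1 Mb or more it was 43.1, 41.4, 45.0 and 42.1%. Beside 50 kb intervals it was 16.7 to 17.2%, near the value for 150 kb gaps. The median flank went from 200 to 250 kb at 150 kb gaps to 100 to 125 kb at gaps of 1 Mb or more. Both flanks were 1 bin long at 4.51 to 5.65% of the 150 kb gaps with empty vector and 3.55 to 4.32% with BAF47, and at 15.8 to 20.7% of the gaps of 1 Mb or more.

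Gaps also lay next to one another. A gap followed or preceded another gap, with 1 domain between them, in 47.4, 45.9, 42.3 and 43.7% of cases, where 18.0 to 19.4% of the 50 kb intervals were next to a gap. Domains with a gap on each side numbered 250 and 240 with empty vector and 215 and 216 with BAF47, which did not overlap (245 ± 7.07 against 215.5 ± 0.71, SD, n = 2; exact permutation p = 0.33). The listed ends of chromosomes held a smaller share of gaps than of intervals. Within 5 Mb of an end were 4.77, 5.48, 5.22 and 4.82% of the gaps, against 10.3 to 10.5% of all intervals of the same list.

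Gaps were spread unevenly over the chromosomes. Chromosome 11 had 16.8 ± 3.54% of its listed span in gaps (SD over the 4 lists), chromosome 18 had 15.2 ± 4.73%, chromosome 6 had 12.5 ± 0.59% and chromosome 15 had 12.3 ± 0.63%. The lowest shares were 3.13 ± 0.23% on chromosome 9 and 3.69 ± 0.55% on chromosome 4. Chromosomes 11 and 18 had the highest shares and also the widest spread between lists. Counted per length, gaps were densest on chromosomes 22 (45.6 ± 3.29 per 100 Mb), 18 (45.5 ± 3.09) and 7 (40.5 ± 2.83) and sparsest on chromosome 9 (14.6 ± 2.15). Gaps of 1 Mb or more occurred on 14 of the 22 chromosomes.

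Gap length was lower in both BAF47 lists than in both empty vector lists on 11 of the 22 chromosomes (50%), namely 1, 4, 5, 6, 8, 10, 11, 12, 13, 18 and 21, and it was higher in both on none (0%). The number of gaps was lower in both BAF47 lists on 7 chromosomes (31.8%), namely 5, 6, 8, 10, 11, 12 and 13, and higher on none (0%). By the same rule the 50 kb intervals were lower on 1 chromosome (4.55%) and higher on 4 (18.2%). Chromosome 11 had 24.75 and 26.55 Mb in gaps with empty vector and 20.85 and 16.05 Mb with BAF47. Chromosome 18 had 14.1 and 14.55 Mb with empty vector and 9.65 and 7.25 Mb with BAF47, while its gaps numbered 36 and 32 with empty vector and 32 and 36 with BAF47. Chromosome 18 therefore had shorter gaps and not fewer, and its gaps of 1 Mb or more numbered 4, 4, 1 and 0.

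Chromosomes 13 and 5 followed. Chromosome 13 had 7.05 and 7 Mb in gaps with empty vector and 4.45 and 3.75 Mb with BAF47, and its gaps numbered 28 and 28 against 22 and 19. Chromosome 5 had 14.8 and 17.35 Mb with empty vector and 12.4 and 12 Mb with BAF47. The differences between the vector means were 7.2 Mb on chromosome 11, 5.88 Mb on chromosome 18, 3.88 Mb on chromosome 5 and 2.92 Mb on chromosome 13. The largest difference between 2 lists of 1 vector was 4.8, 2.4, 2.55 and 0.7 Mb on these chromosomes, in each case less than the difference between vectors. This did not hold on chromosome 21, where the vector means differed by 0.675 Mb and the BAF47 lists by 0.9 Mb. On chromosome 10 the number of gaps differed by 2 between the vector means and by 2 between the BAF47 lists.

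**Figure D3:**
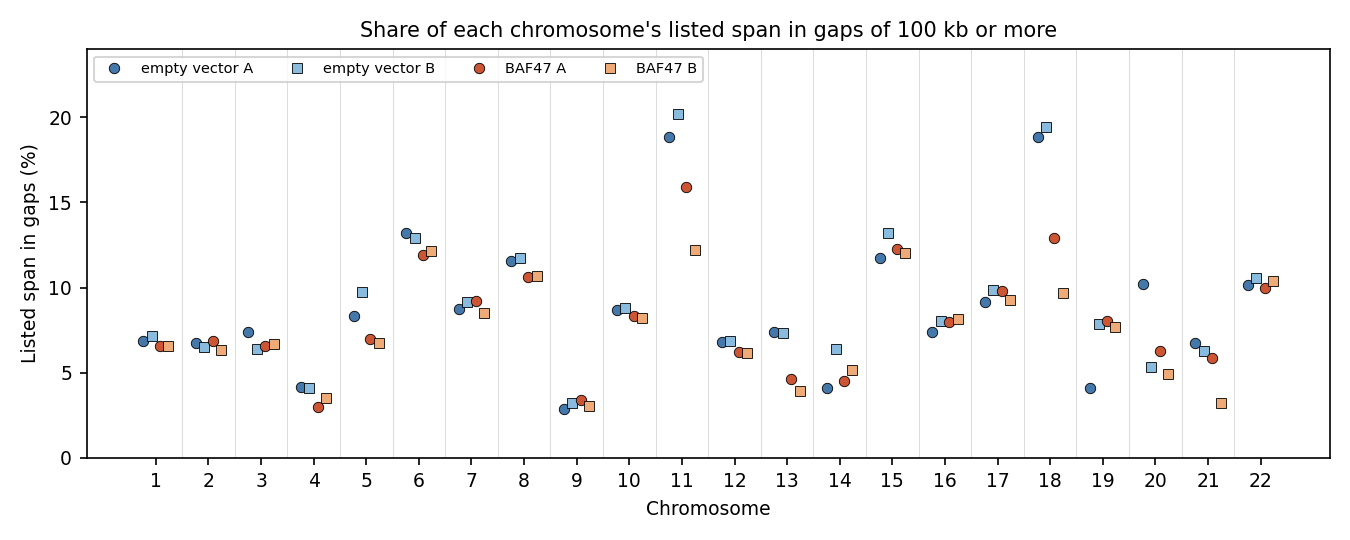
Share of each autosome's listed span that lay in gaps (percent), with 1 point per list. Chromosomes 11 and 18 have the highest means over the 4 lists and the widest spread, with 18.85 and 20.2% against 15.9 and 12.2% on chromosome 11, and chromosome 9 has the lowest mean.

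Most gaps recurred at least in part from list to list, and fewer recurred exactly. With start and end both the same, the 3289 gaps were 1727 distinct ones. Of these, 259 (15.0%) were identical in all 4 lists, 209 (12.1%) in 3, 367 (21.3%) in 2 and 892 (51.7%) in a single list. The count of 259 became 593 when any bin in common was enough, and 93 for gaps of 200 kb or more. The share of a list's gaps that the other 3 lists also had was 34.0 to 37.7% for gaps of 150 kb and 32.6 to 36.9% for those of 400 to 950 kb. It was lower for those of 200 kb (24.2 to 27.8%) and of 250 to 350 kb (18.3 to 23.2%). The lowest share was that of gaps of 1 Mb or more, at 10.3 to 15.8%, with 3 such gaps identical in all 4 lists. The longest gap identical in all 4 lists was 2 Mb.

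Partial recurrence rose with gap length up to 950 kb and was lower again for gaps of 1 Mb or more. A gap of the other 3 lists touched 65.0 and 63.4% of all gaps of the empty vector lists A and B and 68.0 and 69.3% of those of the BAF47 lists A and B, and none of them touched 7.99, 9.56, 6.84 and 6.60%. Among gaps of 400 to 950 kb the share touched in all 3 other lists was 87.4, 84.2, 93.3 and 100%. Among gaps of 1 Mb or more it was 69.0, 82.8, 90 and 94.7%, and among 150 kb gaps 57.2, 53.3, 57.0 and 57.6%. A longer gap offers more bins that can be touched.

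By bin, 312.55 Mb lay in a gap of at least 1 list, and 142.3 Mb of it lay in gaps of all 4. Another 45.15 Mb lay in gaps of 3 lists, 51.45 Mb in gaps of 2 and 73.65 Mb in gaps of 1. The gaps common to both empty vector lists covered 191.9 Mb and those common to both BAF47 lists 169.75 Mb. Bins that were in gaps of both empty vector lists and in domains of both BAF47 lists came to 19.7 Mb, and the reverse came to 5.6 Mb. This order is tied to the lower total gap length of the BAF47 lists and is not a separate result. Gap bins of a single list came to 22.05 and 25.05 Mb in the empty vector lists A and B and to 13.8 and 12.75 Mb in the BAF47 lists A and B.

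Exact matches were as many within 1 vector as within the other. Both empty vector lists shared 454 gaps and both BAF47 lists shared 451, and the 259 gaps in all 4 were 57.0% of the first and 57.4% of the second. A further 99 gaps were in both empty vector lists and in neither BAF47 list (21.8% of 454, the longest 1.75 Mb), and 79 were in both BAF47 lists and in neither empty vector list (17.5% of 451, the longest 1.05 Mb).

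The stretches that lay in gaps of all 4 lists numbered 593, of which 81 were 400 kb or longer and 12 were 1 Mb or longer. The longest, 2.15 Mb on chromosome 6 from 89.4 to 91.55 Mb, lay in gaps of 2.95, 2.55, 2.15 and 3 Mb. The next, 2 Mb on chromosome 5 from 65.8 to 67.8 Mb, was the same gap in each list, with a 250 kb domain on its right in all 4. Another, 1.9 Mb on chromosome 6 from 99.35 to 101.25 Mb, lay in gaps of 3.15, 3.1, 3.1 and 1.9 Mb. Chromosome 6 thus had both the longest stretch and another of the 3 longest without any listed domain.

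The stretch in gaps of all 4 lists, here called the core, is shared by definition, and the gaps around it often differed at an edge. On chromosome 8 a core of 1.8 Mb from 110.9 to 112.7 Mb lay in gaps of 4.65 and 1.8 Mb in the empty vector lists A and B and of 2.7 and 4.3 Mb in the BAF47 lists A and B. These ended within 1 bin of each other and differed at their start. On chromosome 11 a core of 1.4 Mb from 86.55 to 87.95 Mb lay in gaps of 2.4, 1.4, 2.3 and 2.7 Mb, with domains of 50 kb on both sides in all 4 lists. The other cores of this chromosome among the 10 longest were 1.15 Mb (48.8 to 49.95 Mb) and 1.1 Mb (85 to 86.1 Mb). Each had the same right edge in every list.

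The remaining 3 of the 10 longest had at least 1 fixed edge. A gap of 1.15 Mb on chromosome 2 from 86.7 to 87.85 Mb was identical in the 4 lists. A core of 1.2 Mb on chromosome 8 from 6.85 to 8.05 Mb was the whole gap in 3 lists and lay in a gap of 1.25 Mb in BAF47 B. A core of 1.05 Mb on chromosome 5 from 18.6 to 19.65 Mb was the whole gap in both BAF47 lists and lay in gaps of 1.7 and 2.4 Mb with empty vector, with the same start in all 4.

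Gaps were next followed from each list into each of the others. A gap was called filled when at least 80% of its bins lay in domains of the other list. The share for intervals of any length is given in brackets as the background, and a 50 kb interval meets the rule with its single bin. From empty vector A, 26 gaps (3.10%, background 11.0%) were filled in empty vector B, 44 (5.24%, background 12.5%) in BAF47 A and 51 (6.08%, background 12.3%) in BAF47 B. From empty vector B, 19 gaps (2.21%, background 10.7%) were filled in empty vector A, 41 (4.78%, background 12.9%) in BAF47 A and 48 (5.59%, background 11.9%) in BAF47 B. Both BAF47 lists thus filled more gaps of each empty vector list than the other empty vector list did, and the background had the same order.

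The gaps of the BAF47 lists showed this order for 1 list and not for the other. From BAF47 A, 15 gaps (1.87%, background 12.4%) were filled in empty vector A, 12 (1.49%, background 13.0%) in empty vector B and 21 (2.61%, background 10.7%) in BAF47 B. From BAF47 B, 16 gaps (2.03%, background 12.5%) were filled in empty vector A, 12 (1.52%, background 12.5%) in empty vector B and 9 (1.14%, background 11.1%) in BAF47 A. These pairs share lists, so no test over pairs was made. All shares lay below their background, and the background itself was alike in the directions between vectors.

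By length, empty vector gaps had the largest share in BAF47 domains. Of the gap length of an empty vector list, 20.2 to 24.4% lay in domains of a BAF47 list. Of the gap length of a BAF47 list, 11.5 to 13.6% lay in domains of an empty vector list, and between lists of 1 vector the share was 10.7 to 14.6%. This order is tied to the total gap lengths and is not a separate result. Empty vector A had 46.8 Mb of gap length in BAF47 A domains against 27.4 Mb in the reverse. The gap lengths of these 2 lists were 231.15 and 211.4 Mb. Of the 29 gaps of 1 Mb or more in each empty vector list, 4 to 10 were filled in a BAF47 list. The other empty vector list also filled some of these, on chromosome 20 for empty vector A and on chromosomes 5 and 18 for empty vector B. Of the 20 and 19 such gaps in the BAF47 lists A and B, 0 or 1 were filled in an empty vector list. Within a vector 0 to 3 were filled.

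Gaps that were not identical in the other list mostly kept 1 edge or were left with 1-bin intervals only. The shares that follow are of all gaps of a list, filled ones included. Identical gaps made up 52.9 to 57.2% between lists of 1 vector, 47.0 to 50.3% from empty vector to BAF47 and 50 to 53.7% from BAF47 to empty vector. Gaps that kept 1 edge and stayed a gap made up 19.2 to 21.5% from empty vector to BAF47 and 20.3 to 22.7% in the reverse. Gaps that met a gap of the other list in neither of these ways made up 7.27 to 7.58% and 7.61 to 8.83%. Gaps with only 1-bin intervals left in the other list made up 18.8 to 21.6% and 16.0 to 18.0%. Gaps with no unlisted bin left made up 2.91 to 4.17% and 0.89 to 1.65%. Over all 12 ordered pairs of lists, 68.5 to 76.0% of gap edges were kept, against 82.7 to 86.2% of the edges of 50 kb intervals.

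**Figure D4:**
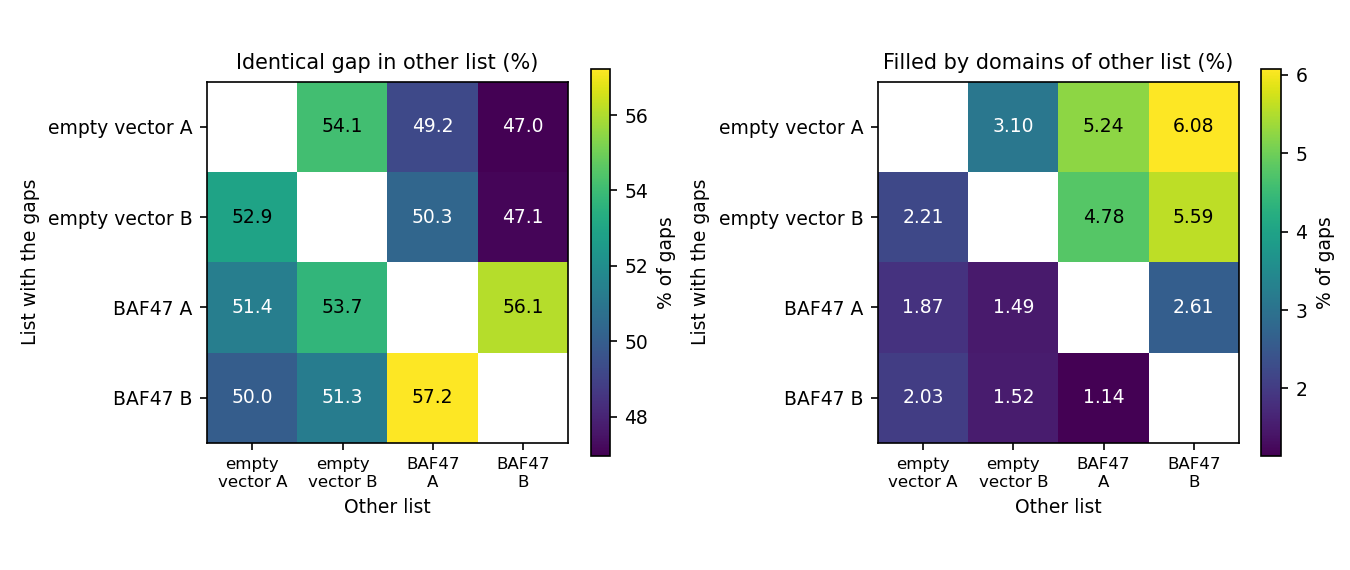
Percent of the gaps of 1 list (rows) that had an identical gap in another list (left) or were filled by its domains (right), on the aligned numbering. The filled share is 4.78 to 6.08% for empty vector gaps in BAF47 lists and 1.14 to 3.10% in every other cell.

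Gaps that closed in both BAF47 lists were few, and several were long. A stretch in gaps of both empty vector lists was called closed when at least 80% of its bins lay in domains of each BAF47 list. Of 719 such stretches, 25 (3.48%) were closed, beside a background of 4.21% for intervals of any length. They covered 14.2 Mb, or 7.40% of the 191.9 Mb in such stretches, with a median of 300 kb. Of the 106 stretches of 400 kb or more 12 were closed, and of the 23 of 1 Mb or more 3 were. The reverse, a stretch in gaps of both BAF47 lists that both empty vector lists filled, was met by 1 of 679 (0.147%, background 3.56%). The order of the closed and opened counts is likewise tied to the total gap lengths and is not independent of them.

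The threshold of 80% moved both counts. At 50% of bins, 57 of 719 stretches were closed and 33 of 679 opened. With 1 list left out, the opened stretches numbered 4 without empty vector A, 7 without empty vector B, 4 without BAF47 A and 7 without BAF47 B, and the closed ones 31 to 37. Closed stretches outnumbered opened ones in each of these counts, by a wide margin at 80% and by less at 50%. Leaving out a list asks for fewer lists to meet the rule, so a higher count does not show stability. The background was computed only for the rule of 80% with all 4 lists, where both shares lay below it. It again consists mostly of 50 kb intervals, which meet the rule with 1 bin, so this order is not a result about gaps.

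The 25 closed stretches lay at 11 loci on 8 chromosomes, which were 3, 4, 5, 8, 10, 11, 13 and 18. A single long domain replaced them as a rule. In both BAF47 lists 24 of the 25 lay under 1 domain, 14 of them under a domain with the same start and end in both. Several stretches shared a domain, so that the 2 BAF47 lists had 22 distinct domains over them. These had a median length of 3 Mb and ran from 300 kb to 7.75 Mb, and 17 of the 22 were at least 1 Mb long.

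The longest closed stretch was 3.95 Mb on chromosome 11, from 92.6 to 96.55 Mb. Empty vector A had a gap of 3.95 Mb there and empty vector B one of 4.3 Mb, the longest gap of that list. Both BAF47 lists had 1 domain of 4.1 Mb from 92.65 to 96.75 Mb. Within the window of this domain, 1.22% of bins lay in domains in empty vector A and 0% in empty vector B. The locus went from almost no listed domain to a single one with the same edges in both BAF47 lists.

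Chromosome 18 had a locus of the same kind. Both BAF47 lists had 1 domain of 4.15 Mb from 32.1 to 36.25 Mb. In that window empty vector A had 3 domains and empty vector B had 2, all of 50 kb, which left 3.61 and 2.41% of bins listed. Empty vector B had a gap of 3.6 Mb from 32.15 to 35.75 Mb, which the isolated domains of empty vector A split into several. The locus held 5 closed stretches with 3.95 Mb in all, the longest of them at 33.9 to 35.3 Mb (1.4 Mb), 32.5 to 33.85 Mb (1.35 Mb) and 35.8 to 36.3 Mb (0.5 Mb).

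The other two long loci differed, in that part of the window was already listed with empty vector. On chromosome 13 both BAF47 lists had 1 domain of 6.15 Mb from 34.75 to 40.9 Mb. Both empty vector lists had 4 domains over that window, among them 1 of 3.85 Mb, with 70.7 and 71.5% of bins listed. The longer of the 3 closed stretches, at 39.15 to 40 Mb and 40.05 to 40.6 Mb, were gaps identical in both empty vector lists. The shortest, at 40.7 to 40.95 Mb, lay in gaps that started 1 bin apart. All lay to the right of the 3.85 Mb domain.

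On chromosome 5 the edges of the domain that filled the gaps differed between the BAF47 lists. BAF47 A had a domain of 6.15 Mb from 23.8 to 29.95 Mb and BAF47 B one of 7.75 Mb from 22.2 to 29.95 Mb. In the window of the latter, 60% and 29.0% of bins were listed in the empty vector lists A and B and 81.3% and 100% in the BAF47 lists A and B. The closed stretches at 28.75 to 29.45 Mb (0.7 Mb) and 29.5 to 30.05 Mb (0.55 Mb) lay in 1 gap of 1.35 Mb in empty vector A and in separate gaps in empty vector B. The lists thus formed a series in which the empty vector lists also differed from each other.

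The other named loci were shorter. On chromosome 11 a stretch of 0.7 Mb from 51.25 to 51.95 Mb lay in gaps of 1.05 Mb in empty vector A and 0.7 Mb in empty vector B, and under a domain of 1.4 Mb from 50.7 to 52.1 Mb in both BAF47 lists. Over that window 17.9 and 14.3% of bins were listed with empty vector. On chromosome 3 a stretch of 0.4 Mb from 75.65 to 76.05 Mb lay in gaps of 0.5 and 0.4 Mb, and under a domain of 0.8 Mb from 75.7 to 76.5 Mb in both BAF47 lists. On chromosome 4 the closed stretches lay under a domain that started at 112.45 Mb in both BAF47 lists and ended 1 bin apart, where 28.2 and 70.4% of bins were listed with empty vector. At the remaining 4 loci, 3 on chromosome 8 and 1 on chromosome 10, the empty vector lists already had 71.0 to 81.25% of the window in domains.

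**Figure D5:**
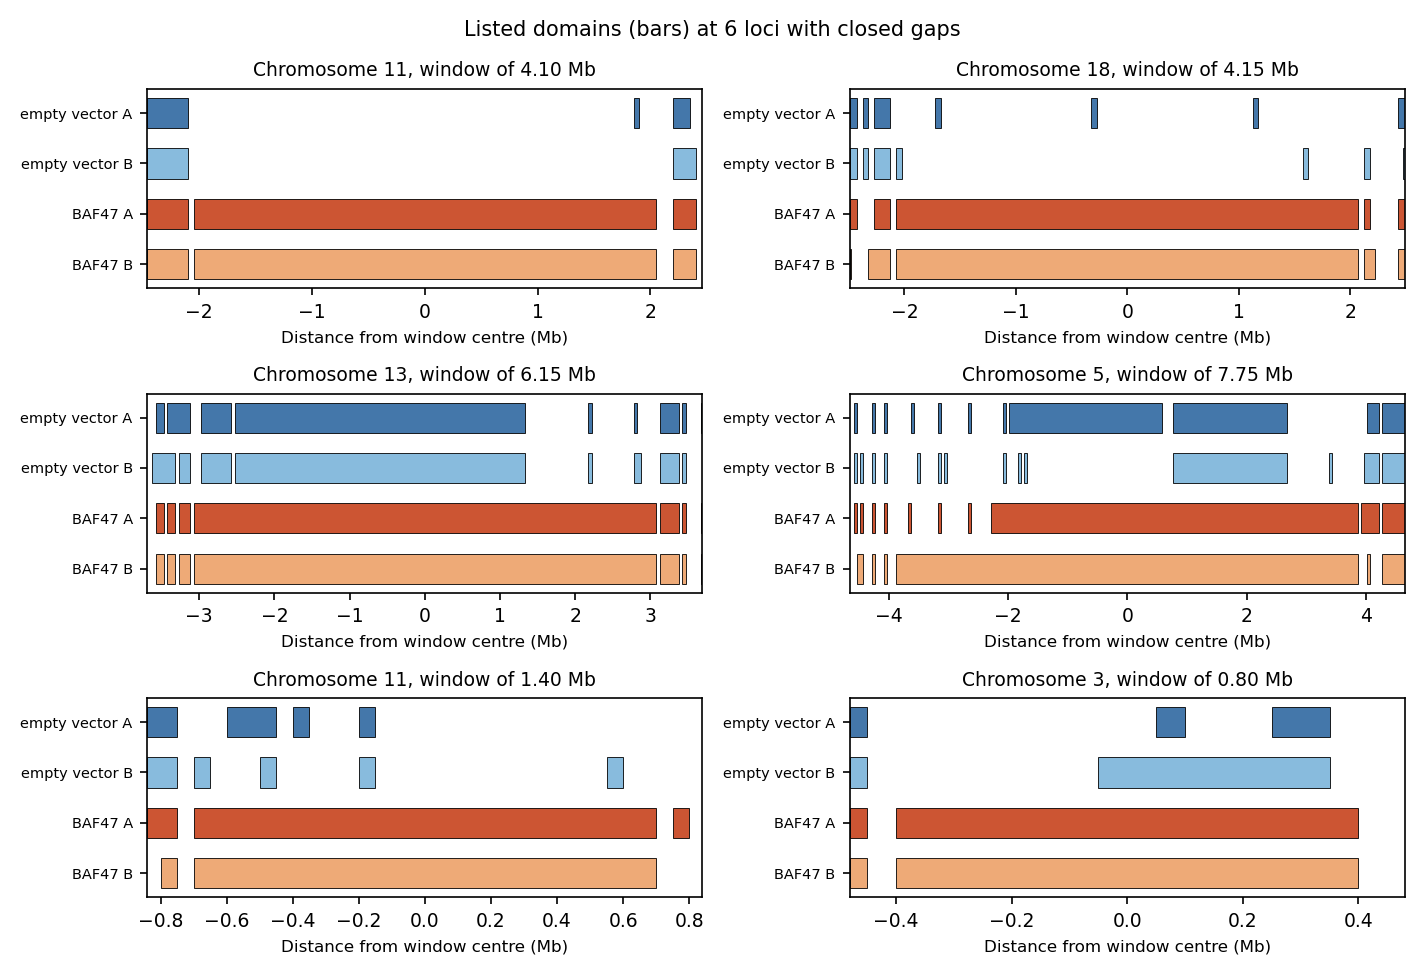
Listed domains (bars) of the 4 lists at the 6 loci that hold the 10 longest closed stretches, against the distance in Mb from the centre of each window, which is the longest BAF47 domain over the stretch. In the chromosome 11 window of 4.1 Mb and the chromosome 18 window of 4.15 Mb both BAF47 lists have 1 domain from edge to edge, where the empty vector lists have 0 to 3 domains of 50 kb.

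The single opened stretch was short. It lay on chromosome 6 from 92.45 to 92.65 Mb, in a gap of 850 kb in BAF47 A and of 200 kb in BAF47 B. Both empty vector lists had the same domain of 300 kb there, from 92.4 to 92.7 Mb. No opened stretch reached 400 kb, of 92 that long in gaps of both BAF47 lists.

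Gaps of over 1 Mb also came and went between lists of 1 vector. On chromosome 20, empty vector A had gaps of 1.05 Mb (13.65 to 14.7 Mb) and 1.25 Mb (15.5 to 16.75 Mb), where empty vector B had 1 domain of 2.7 Mb and both BAF47 lists had 1 of 2.65 Mb on the aligned numbering. On chromosome 19, empty vector B and both BAF47 lists had a gap of 2.05 to 2.15 Mb up to 51.05 Mb, where empty vector A had a domain of 1.95 Mb from 49.05 to 51 Mb. In each of these places 1 empty vector list stood alone.

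BAF47 B stood alone in other places. On chromosome 11 from 22.4 to 26.3 Mb, gaps covered 3.85 Mb in both empty vector lists and 3.9 Mb in BAF47 A, and BAF47 B had a domain of 3.8 Mb from 22.8 to 26.6 Mb. On chromosome 18, gaps of 2.85 Mb in empty vector A, 2.75 Mb in empty vector B and 2.65 Mb in BAF47 A gave way to a domain of 3.15 Mb from 58.5 to 61.65 Mb in BAF47 B alone. The same vector thus gave a long gap in 1 list and a long domain in the other, at sizes like those of the closed stretches on chromosomes 11 and 18. On both chromosomes BAF47 B had the lowest gap length of the 4 lists.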

How the data were processed

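Hi-C domain lists of 4 samples were used, 2 per vector. The authors deposited 1 list per sample with a chromosome, start and end (positions, a unit with no scale of expression), on hg18 per the submitters' processing notes. Neither the aligner nor the domain caller is given in the sources used here, and depth is unknown. From the lists, intervals between neighbouring domains were computed in Python 3.11.15 with pandas 2.3.3, and those of 100 kb or more were kept. Numbering was aligned to empty vector A by tracing, with at most 3 bins of offset, the path that matched most starts, each change costing 10 matches and each block needing 10. The step was put at the first start seen only once moved, a placing chosen after seeing the data. Values per list were compared by exact two-sided permutation over 6 assignments of the 4 samples. The scripts were tested on simulated lists. The gaps, the lists and the rules were chosen with earlier results of these data known. The regions named were the 10 longest stretches in gaps of all 4 lists, the 10 longest closed and the 10 longest opened stretches, and gaps at numbering steps. The closed loci on chromosomes 4, 8 and 10, the shortest on chromosome 13 and the places where 1 list stood alone were named after their values were seen. Alternatives were the minimum gap, the share of bins for filling, positions as listed, no chromosomes 9 and 20, pairing by letter and leaving out each list.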

Additional observations from a re-analysis of the deposited data

How the results depend on the processing

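Of 67 alternative values, 54 stayed within their limits, 13 moved and 0 reversed. For a difference between vectors in a value per list the limit was its sign alone, so a change of size did not count. For the excess of the share filled from empty vector to BAF47 over that within 1 vector, the limit was 0.55 points. This is the SD over the 4 ordered pairs from empty vector to BAF47. For a count the limit was a ratio of 1.5, and a count could not reverse. With gaps of at least 200 kb, the difference in median flank was 0 kb (25 kb at 100 kb), identical gaps numbered 93 and the share filled from empty vector to BAF47 exceeded that between lists of 1 vector by 6.08 points (3.16 points at 100 kb). The difference in the number of gaps was then -24 (-52.5 at 100 kb). With 50% of bins as the limit that excess was 5.79 points, and 57 of 719 stretches were closed and 33 of 679 opened, with no background computed. With all bins required the excess was 2.14 points. With any bin in common, 593 stretches were in gaps of all 4 lists. Leaving out 1 list at a time, the difference in median flank ranged from 0 to 50 kb. The closed count was 31 to 37 and the opened count 4 to 7, under a rule that then asked for fewer lists. The difference between vectors was then -62 to -43 gaps and -34.6 to -23.4 Mb. As a replicate block (letters as pairs) the difference was -52.5 gaps and -29 Mb, with an exact sign-flip p of 0.5, the smallest that pairing allows. Whether the letters pair samples is not stated. A minimum of 150 kb changed nothing, since no gap was 100 kb. The depth behind a gap is unknown. With 2 lists per vector no p can fall below 0.33.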
